A study of Mus musculus with 2 samples.

Results

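Single-cell RNA sequencing of optic nerves from Nf1OPG mice was used to read 10 genes chosen by their measured level, high in glioma cells and rare in other cells: *Inava*, *Plpp4*, *Vxn*, *Tmem255b*, *Megf11*, *Lhfpl3*, *Olfm2*, *Nxph1*, *Dbx2* and *Brinp1*. All 10 were found by symbol among the 32285 genes of the deposited table. Glioma cells were gated as cells with a summed raw count of at least 3 for *Neu4*, *C1ql1* and *Pcdh15*, counted as unique molecular identifiers (UMIs, each standing for 1 captured RNA molecule). The gate held 423 of 8834 cells of the library C-ON and 1173 of 16818 cells of the library FMC_new. Since these same cells chose the genes, their levels against other cell classes are given as a description, without a test.

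Both libraries came from Nf1OPG mice, in which a germline mutant *Nf1* allele is combined with a floxed *Nf1* allele that GFAP-Cre removes (*Nf1* flox/mut; GFAP-Cre), on a C57BL/6 background. Cre is thus driven in GFAP-lineage cells, and every mouse carried the tumor genotype, so that no optic nerve without the tumor genotype entered the comparison. Each library was made from nerves pooled from 10 mice at 12 weeks of age, dissociated and cleared of debris and myelin, and was read with a droplet method that captures the 5′ end of transcripts. The title of C-ON includes the word control and that of FMC_new does not, and the labels do not explain either. The libraries are 2 pools of 1 genotype, and single mice cannot be separated within them.

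*Nf1* encodes neurofibromin, which restrains RAS signaling, and loss of both copies in glial precursors leads to low-grade glioma of the optic pathway in children with neurofibromatosis type 1. Such tumor cells resemble the oligodendrocyte progenitor cell (OPC), a dividing cell that gives rise to myelinating oligodendrocytes and is known for *Pdgfra* and *Cspg4*. *Gpr17*, a receptor carried by cells that leave the progenitor state for differentiation, marks an intermediate of that path.

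The 10 genes belong to different families. *Megf11* (transmembrane protein with multiple EGF-like domains, known for the spacing of retinal neurons), *Lhfpl3* (tetraspan protein of the LHFPL family) and *Tmem255b* (transmembrane protein) encode membrane proteins. *Nxph1* (neurexophilin, a ligand of alpha-neurexins) and *Olfm2* (olfactomedin) encode secreted glycoproteins. *Plpp4* encodes a phospholipid phosphatase, *Inava* an adaptor that binds cytohesins at cell junctions, and *Dbx2* a homeobox transcription factor of the developing neural tube. *Vxn* encodes vexin, known from neurogenesis, and *Brinp1* a protein induced by BMP and retinoic acid in the nervous system.

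On mouse build GRCm38, *Lhfpl3* had the widest span of the 10 genes, 529.539 kb on the plus strand at chr5:22746059-23275597. The others lay at chr1:136213531-136234264 (*Inava*, minus), chr7:129257031-129391412 (*Plpp4*, plus), chr1:9601199-9627143 (*Vxn*, plus), chr8:13435189-13468473 (*Tmem255b*, plus), chr9:64385626-64709205 (*Megf11*, plus), chr9:20667690-20746349 (*Olfm2*, minus), chr6:8948431-9249032 (*Nxph1*, plus), chr15:95623563-95655960 (*Dbx2*, minus) and chr4:68761514-68954397 (*Brinp1*, minus). Exons of *Lhfpl3*, *Vxn*, *Inava* and *Tmem255b* shared bases with *A930003O13Rik*, *2610203C22Rik*, *Gm26568* and *Gas6*, each on the opposite strand. The strand setting of the counting is not given in the sources used here, so that counts from reads on the shared bases are uncertain.

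Promoters are shown for *Lhfpl3*, the gene with the highest count in glioma cells, and for *Inava*, a gene with few counts outside them. Each sequence is the 250 bases before the gene's RefSeq start on GRCm38.p6, read along the gene's strand, with the E-box CAGCTG (a motif read by proneural and oligodendrocyte-lineage bHLH factors, the same on both strands) in capitals. The *Lhfpl3* window is chr5:22745804-22746053 on the plus strand and the *Inava* window is chr1:136234281-136234530 on the minus strand.
Lhfpl3: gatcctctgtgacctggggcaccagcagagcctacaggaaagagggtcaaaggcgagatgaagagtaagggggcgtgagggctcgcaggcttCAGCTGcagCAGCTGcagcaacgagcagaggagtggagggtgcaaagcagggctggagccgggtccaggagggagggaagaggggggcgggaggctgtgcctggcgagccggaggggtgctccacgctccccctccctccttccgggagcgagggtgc
Inava: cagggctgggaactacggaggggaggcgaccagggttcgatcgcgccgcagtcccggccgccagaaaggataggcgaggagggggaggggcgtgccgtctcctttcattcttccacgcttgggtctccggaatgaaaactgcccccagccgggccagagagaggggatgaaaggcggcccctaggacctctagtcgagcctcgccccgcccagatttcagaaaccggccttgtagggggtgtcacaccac
The *Lhfpl3* window held the E-box at 158 and 149 bases before the start, and the *Inava* window held none. RefSeq entries matched 8 of the 10 genes, with 10 starts in all, and those of *Vxn* and *Megf11* were not matched. The E-box was at 2 of the 10 starts, those of *Lhfpl3* and *Plpp4*, and in 13.001% of 32851 promoters of that length. The SOX motif ACAAAG, searched on both strands, was at 2 of the 10 starts and in 16.5% of all promoters. These were the start of *Dbx2* and 1 start of *Olfm2*, whose other starts lacked it. ACAATG was at 1 of the 10 starts, that of *Dbx2*, and in 10.7% of all promoters. GC content was 67.2% for *Lhfpl3* and 65.2% for *Inava*, against a median of 52.4% over all promoters. No motif was set against the counts.

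The gate was checked against markers before any level was read. Cells were clustered in each library without the 10 genes, the gate genes or *Gpr17*, and clusters were named from marker lists. Of the gated cells, 187 of C-ON and 966 of FMC_new lay in glioma (OPC)-like clusters, and 221 and 107 lay in oligodendrocyte-like clusters. The gated cells of the glioma-like clusters held all 10 of 10 OPC markers in at least 20% of cells in both libraries. Their summed OPC marker level was 9852 CPM (UMIs of a gene per 1000000 UMIs of the class) in C-ON and 8614 in FMC_new. The gated cells of the oligodendrocyte-like clusters held 0 of 10 OPC markers in that share of cells, with summed levels of 46.4 and 76.7 CPM, and held 8 of 8 oligodendrocyte markers. Of these, 217 of 221 and 103 of 107 had passed the gate on *Pcdh15* alone, with medians of 9679 and 9701 UMIs per cell. A further 49 gated cells of FMC_new lay in pituitary endocrine-like clusters, of which 37 passed on *Pcdh15* alone. In the glioma-like clusters, gated cells also held 6 of 8 oligodendrocyte markers in at least 20% of cells in C-ON, at a summed 1771 CPM, and 2 of 8 in FMC_new, at 1020 CPM. They held 2 and 3 of 8 astrocyte markers in that share of cells, at 1111 and 788 CPM, and 2 and 3 of 10 pituitary endocrine markers, at 162 and 579 CPM. The part of these other markers in the levels below was not tested. The gate thus joined OPC-like cells with cells that carried other defining markers, and the levels below are given for the gated cells of the glioma-like clusters, with all gated cells beside them. The markers do not separate tumor cells from OPCs of the nerve, and these cannot be told apart here.

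The libraries held 85101211 and 129113325 UMIs, with medians of 6810.5 and 4676 UMIs per kept cell. They share 296 barcodes, of which 7 and 15 were gated cells, and the numbers of genes called over all gated cells below were the same without them. Scrublet, a doublet caller, marked 1 cell of C-ON and 0 of FMC_new and so did not work, and no cell was removed as a doublet. Shares of cells with a UMI are read beside those of T cell-like cells, taken as a class that should lack them, at medians of 3318 (C-ON) and 3062 (FMC_new) UMIs against 5385 and 6227 in the gated cells of the glioma-like clusters. Intervals are exact 95% intervals and cover counting error only.

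Among the membrane proteins, *Lhfpl3* was found in 98.4% of the 187 gated glioma-like cells of C-ON (95.4 to 99.7) and in 98.8% of the 966 of FMC_new (97.8 to 99.4). Its level was 2609 CPM (2516 to 2705) in C-ON and 2741 CPM (2700 to 2781) in FMC_new, and in all gated cells 868 and 2185 CPM. It was also the gene of the 10 with the most counts outside: T cell-like cells held it in 3.71% and 5.62% of cells, at 10.3 and 17.9 CPM. *Megf11* was found in 71.7% (64.6 to 78.0) and 69.0% (66.0 to 71.95) of the gated glioma-like cells, at 339 CPM (306 to 375) and 261 CPM (249 to 274), and at 110 (C-ON) and 227 CPM (FMC_new) in all gated cells. T cell-like cells held *Megf11* in 0.279% and 0.942% of cells. *Tmem255b* was found in 50.3% (42.9 to 57.6) of cells of C-ON and 42.5% (39.4 to 45.7) of cells of FMC_new, at 135 CPM (115 to 158) and 104 CPM (96.1 to 112), and at 43.4 and 82.4 CPM in all gated cells. It had no UMI in the 1077 T cell-like cells of C-ON, a limit of 0.279% at 0 counts, and was in 0.0883% of those of FMC_new.

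Among the secreted proteins, *Nxph1* was found in 86.1% (80.3 to 90.7) and 87.2% (84.9 to 89.2) of the gated glioma-like cells, at 715 CPM (667 to 766) in C-ON and 606 CPM (587 to 625) in FMC_new. In all gated cells it stood at 230 and 485 CPM, and T cell-like cells held it in 1.39% and 1.56% of cells. *Olfm2* was found in 84.5% (78.5 to 89.4) and 85.8% (83.5 to 87.96), at 510 CPM (469 to 553) in C-ON and 460 CPM (444 to 477) in FMC_new, against 165 and 365 CPM in all gated cells. T cell-like cells held *Olfm2* in 0.0929% and 0.677% of cells. After *Lhfpl3*, these 2 genes were in the largest share of the gated glioma-like cells in both libraries.

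The enzyme gene *Plpp4* had a UMI in 61.5% (54.1 to 68.5) of gated glioma-like cells in C-ON, and in 64.4% (61.3 to 67.4) in FMC_new, at 214 CPM (188 to 243) and 184 CPM (173 to 195). For the adaptor gene *Inava* the shares were 50.8% (43.4 to 58.2) and 56.0% (52.8 to 59.2), at 150 CPM (129 to 175) and 151 CPM (142 to 161). In all gated cells *Plpp4* stood at 69.6 and 149 CPM and *Inava* at 49.1 and 120 CPM. T cell-like cells held *Plpp4* in 0.371% and 0.177% of cells, and *Inava* in 0.0929% and 0.0294%, the lowest share of the 10 genes in FMC_new.

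The transcription factor gene *Dbx2* had a UMI in 53.5% (46.1 to 60.8) of gated glioma-like cells in C-ON, and in 59.4% (56.2 to 62.5) in FMC_new, at 158 CPM (136 to 183) and 184 CPM (173 to 194). *Vxn* was found in 63.6% (56.3 to 70.5) and 65.0% (61.9 to 68.0), at 213 CPM (187 to 242) and 205 CPM (194 to 216). *Brinp1* was found in 59.9% (52.5 to 66.98) and 57.3% (54.2 to 60.5), at 185 CPM (161 to 212) and 176 CPM (166 to 186). In all gated cells *Dbx2* stood at 50.8 and 149 CPM, *Vxn* at 69.1 and 161 CPM and *Brinp1* at 62.9 and 145 CPM. T cell-like cells held *Dbx2* in 0.0929% and 0.412% of cells, *Vxn* in 0.186% and 0.324%, and *Brinp1* in 0.557% and 0.147%.

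**Figure D1:**
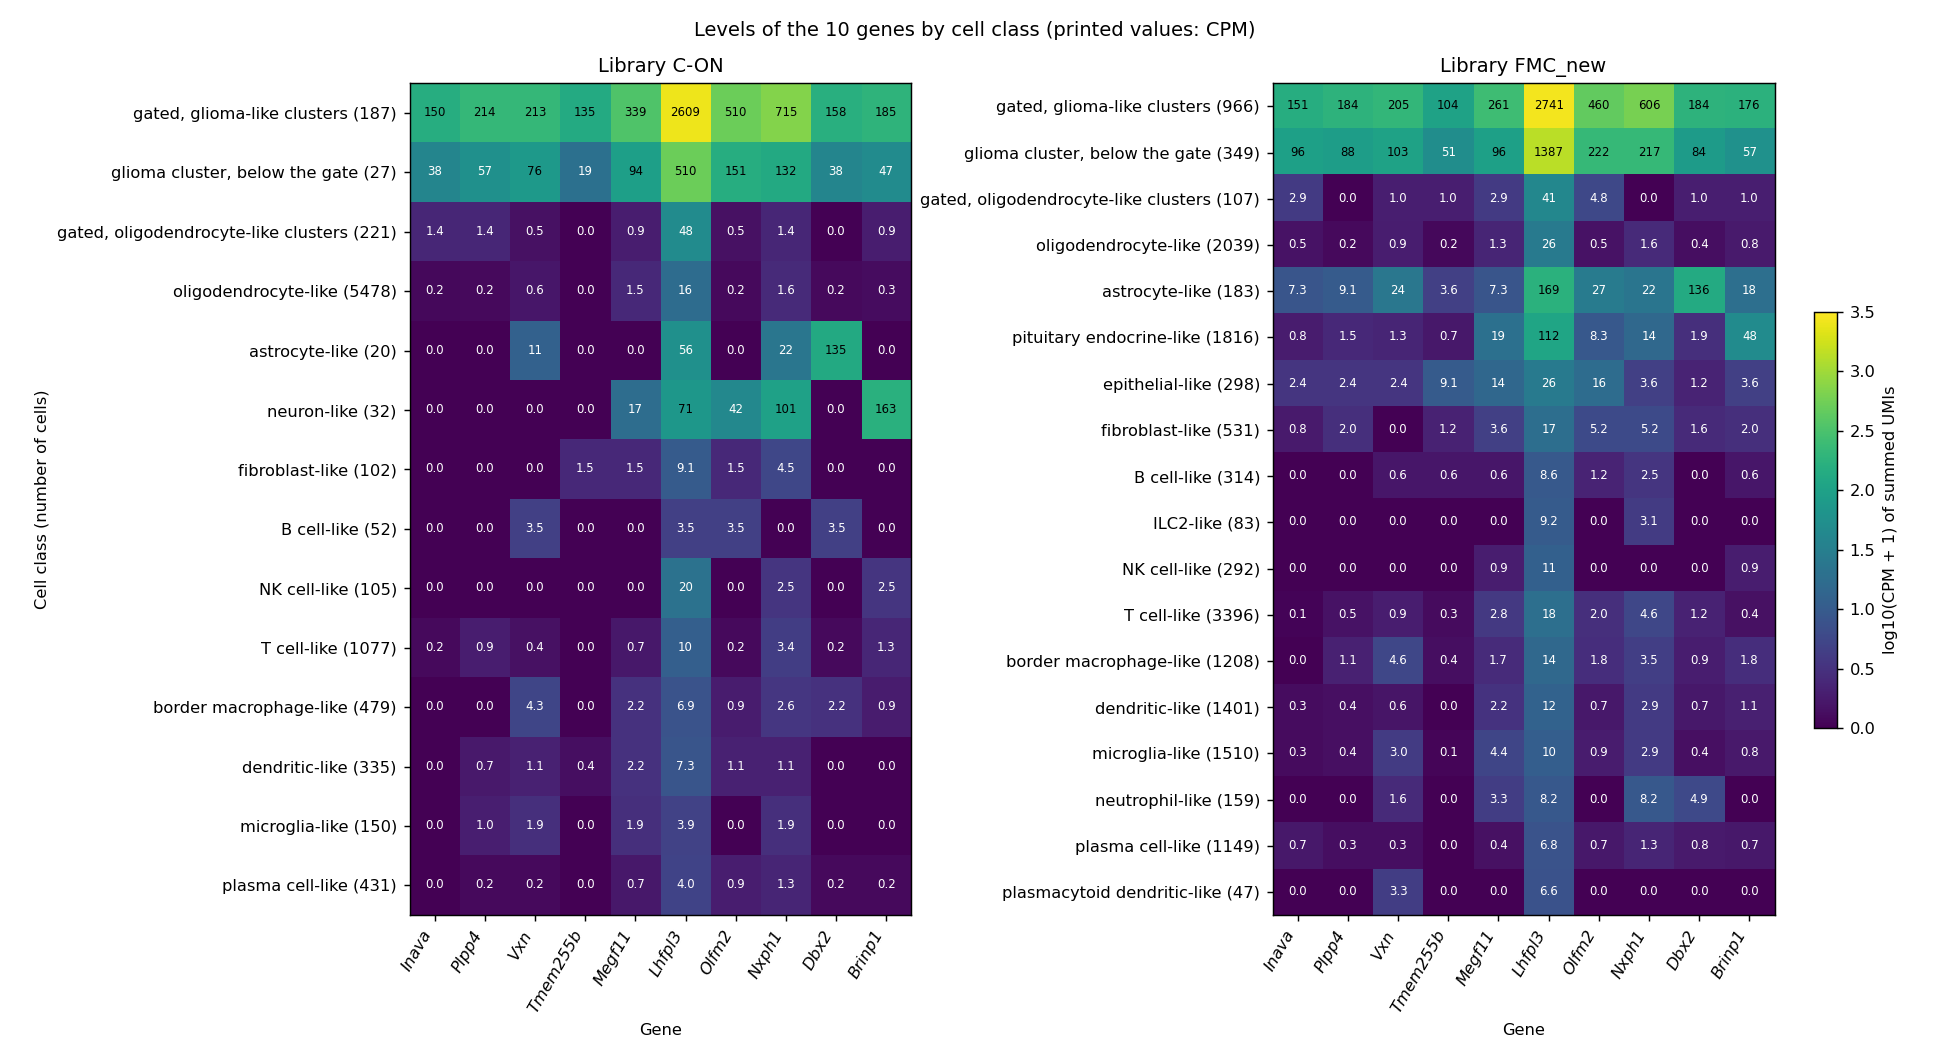
Levels of the 10 genes (columns) in each cell class (rows, with the number of cells) of C-ON and FMC_new, as CPM of the summed UMIs of the class, with color on a log10(CPM + 1) scale and the CPM printed in each cell. The gated cells of the glioma-like clusters are bright in every column, *Lhfpl3* is above 0 in every class shown, and *Dbx2* in astrocyte-like and *Brinp1* in neuron-like and pituitary endocrine-like cells stand out from the other classes.

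The gated cells of the glioma-like clusters made up a small share of the kept cells and held most of the UMIs of each gene. They held 96.9% of the UMIs of *Tmem255b* in C-ON and 82.5% in FMC_new, 90.96% and 84.5% of those of *Inava*, 91.5% and 83.5% of those of *Olfm2* and 90.0% and 83.8% of those of *Plpp4*. For *Nxph1* these shares were 84.1% and 82.4%, for *Vxn* 80.7% and 82.4%, for *Dbx2* 84.1% and 78.4%, for *Lhfpl3* 74.2% and 78.0%, for *Megf11* 78.1% and 68.7%, and for *Brinp1* 72.3% and 56.9%. With every cell thinned to 1000 UMIs, *Lhfpl3* was still found in 78.1% and 87.1% of these cells, *Nxph1* in 43.3% and 43.1%, *Olfm2* in 42.2% and 37.4%, and *Inava* in 12.3% and 12.5%.

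The gate's edge was read on cells just inside and just outside it, within the glioma-like clusters. Cells with a gate sum of 3 held *Lhfpl3* at 943 CPM (11 cells of C-ON) and 1983 CPM (58 cells of FMC_new), and cells with a sum of 2 at 808 CPM (11 cells) and 1780 CPM (84 cells). *Inava* stood at 98.2 and 77.4 CPM at a sum of 3, and at 0 and 121 CPM at a sum of 2. Over all cells of these clusters below the gate, 27 in C-ON and 349 in FMC_new, *Lhfpl3* was found in 70.4% and 74.2% of cells, at 510 and 1387 CPM. Cells on both sides of the edge within these clusters thus carried *Lhfpl3*, at a lower level than the gated cells as a whole. In the oligodendrocyte-like clusters, cells with a sum of 3 held *Lhfpl3* at 28.4 (C-ON) and 27.8 CPM (FMC_new).

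How far each gene was confined to glioma cells was read as the ratio of its level in gated glioma-like cells to that in the highest other named class of at least 20 cells. Pooled over both libraries, the ratio was 24.2 for *Inava* and 24.1 for *Plpp4*, 17.8 for *Lhfpl3*, 14.5 for *Megf11*, 12.0 for *Tmem255b* and 11.2 for *Olfm2*. It was 9.41 for *Vxn*, 6.19 for *Nxph1*, 1.32 for *Dbx2* and 1.09 for *Brinp1*. The pooled ratios hide a difference between the libraries, whose classes are not the same, since C-ON held the neuron-like cells and FMC_new most of the astrocyte-like cells. The highest other class held *Inava* at 0.224 CPM in C-ON and 7.27 CPM in FMC_new. For *Plpp4* these levels were 0.963 and 9.08 CPM, and for *Tmem255b* 1.51 and 9.08 CPM. Each of these C-ON levels rests on 1 UMI, as does the *Vxn* level of 11.2 CPM in the astrocyte-like cells of C-ON. The ratio was 36.6 in C-ON and 16.2 in FMC_new for *Lhfpl3*, 20.2 and 13.9 for *Megf11*, 19.0 and 8.67 for *Vxn*, and 12.2 and 16.9 for *Olfm2*. It was 7.11 and 27.8 for *Nxph1*, 1.17 and 1.35 for *Dbx2*, and 1.13 and 3.65 for *Brinp1*. Thus 6 of 10 genes were at least 10 times every other named class, against 0.604% of 11417 genes. Unnamed clusters and glioma-like cells below the gate took no part in the count, and the contrast had itself chosen the genes. Gated cells outside the glioma-like clusters were also left out of the other classes. Among them were 49 pituitary endocrine-like cells of FMC_new, which held *Megf11* above the gated glioma-like cells, as given at the end. The ratio of *Megf11* with these cells put back into their class was not read. In C-ON 7 passed, against 1.22%, and in FMC_new 7, against 0.819%. With all gated cells in place of those of the glioma-like clusters, 4 of 10 passed, *Inava*, *Plpp4*, *Megf11* and *Lhfpl3*, against 0.337% of 12477 genes. That number was 4 in C-ON, against 0.257%, and 6 in FMC_new, against 0.581%. *Dbx2* and *Brinp1* were then below the highest other class, at ratios of 0.881 and 0.738. Read by named class, the description of the genes as restricted to glioma cells therefore did not hold for *Dbx2* and *Brinp1*. Single clusters of FMC_new described below also held *Megf11*, *Tmem255b* and *Nxph1* well above the highest other named class of that library. *Lhfpl3* and *Brinp1* were above that level in single clusters too.

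The other class with the most *Dbx2* was astrocyte-like in both libraries. *Dbx2* was found in 35.0% of the 20 astrocyte-like cells of C-ON, at 135 CPM (69.6 to 235), and in 23.5% of the 183 of FMC_new, at 136 CPM (107 to 171). The interval of C-ON overlapped that of its gated glioma-like cells, and that of FMC_new lay below it. The astrocyte-like cells of FMC_new also held *Lhfpl3* at 169 CPM in 29.5% of cells, *Olfm2* at 27.3 CPM, *Vxn* at 23.6 CPM, *Nxph1* at 21.8 CPM and *Brinp1* at 18.2 CPM. Their median was 2291 UMIs per cell, under that of the gated glioma-like cells.

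*Brinp1* was highest outside glioma in neurons and endocrine cells. The 32 neuron-like cells of C-ON held *Brinp1* in 40.6% of cells, at 163 CPM (116 to 223), an interval that overlapped that of the gated glioma-like cells. The same cells held *Lhfpl3* at 71.2 CPM, *Olfm2* at 41.9 CPM in 8 cells and *Megf11* at 16.8 CPM. Their *Nxph1* level of 100.5 CPM came from 24 UMIs in 3 cells. *Inava*, *Plpp4*, *Vxn*, *Tmem255b* and *Dbx2* had no UMI in the 32 neuron-like cells, a limit of 9.38% each.

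FMC_new held 1816 pituitary endocrine-like cells outside the gate, and the 10 genes were not spread evenly over their clusters. *Lhfpl3* was at 286 CPM (269 to 304), in 73.3% of cells, in the 315 cells of a cluster led by *Pappa2*, *Ghrhr*, *Gal*, *Pou1f1* and *Gh*, at a median of 12439 UMIs, and in 24.4% of those cells at 1000 UMIs. It was at 11.9 CPM in the 580 cells of a cluster led by *Avpr1b*, *Crhr1* and *Tbx19*, genes of the corticotrope, where *Brinp1* was at 68.3 CPM (61.4 to 75.7) in 33.4% of cells. In 116 cells led by *Oacyl*, *Pcsk2* and *Pax7*, the last a factor of the intermediate lobe, *Megf11* was at 258 CPM (225 to 295) in 51.7% of cells, *Lhfpl3* at 183 CPM (155 to 214) and *Nxph1* at 129 CPM (106 to 155) in 31.9% of cells. The *Megf11* interval of those 116 cells overlapped that of the gated glioma-like cells of FMC_new. *Inava*, *Plpp4* and *Tmem255b* were at 0.85, 1.54 and 0.69 CPM in the pituitary endocrine-like cells as a class. No cluster of C-ON was named pituitary endocrine-like, and an unnamed cluster of 98 cells of C-ON, with *Cga* and *Chga* among its leading genes and a median of 1792.5 UMIs, held *Lhfpl3* at 13.04 CPM.

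**Figure D2:**
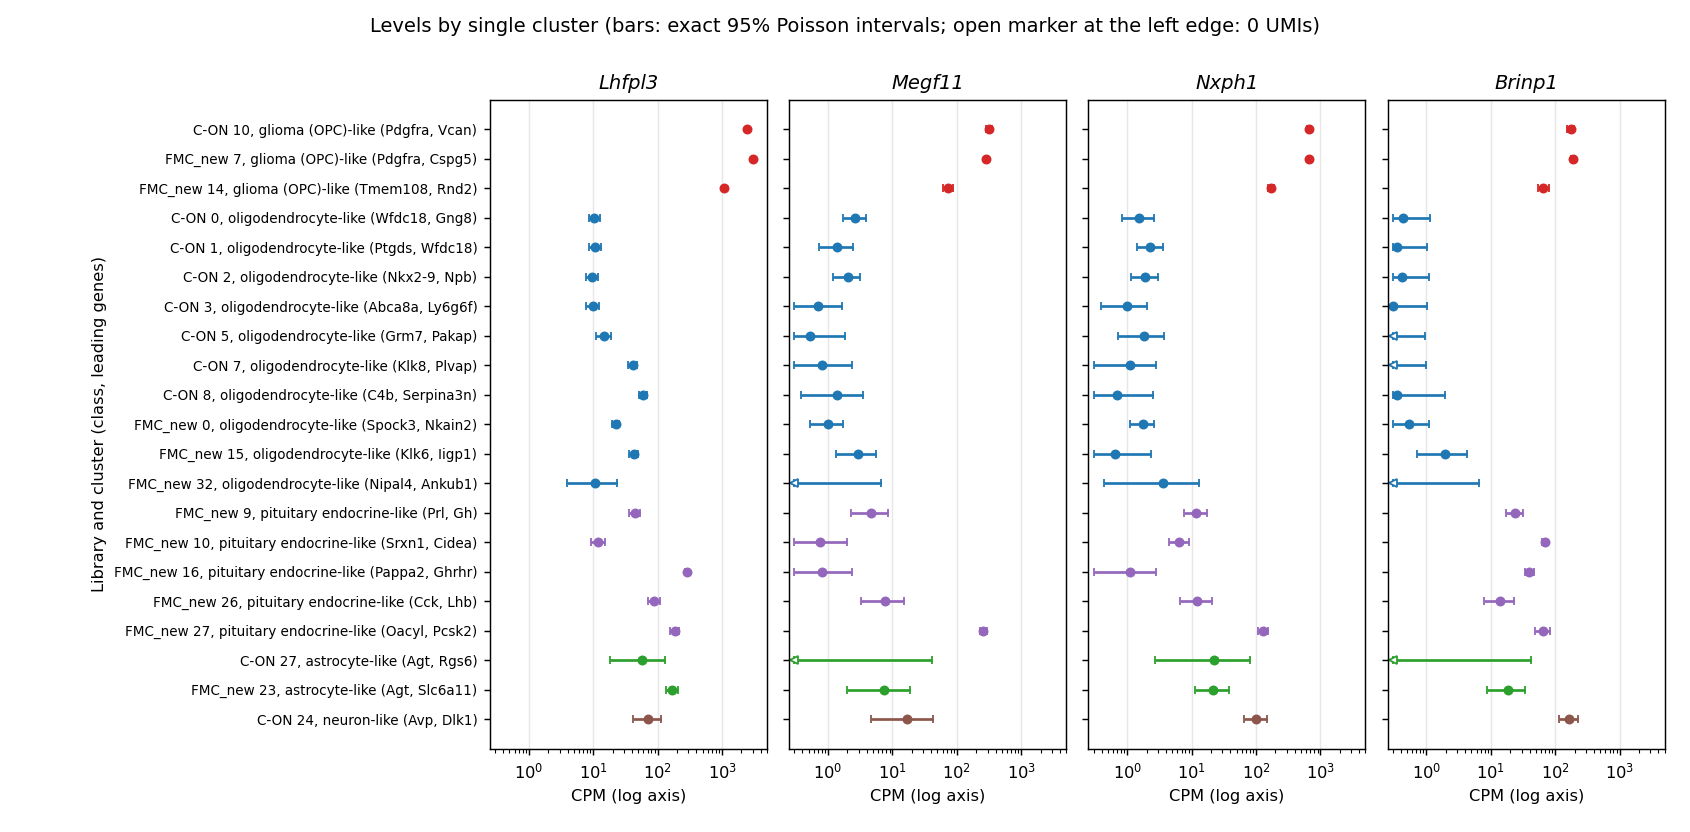
Levels of *Lhfpl3*, *Megf11*, *Nxph1* and *Brinp1* in single clusters of the glioma-like, oligodendrocyte-like, pituitary endocrine-like, astrocyte-like and neuron-like classes, with a row for each library and cluster, as CPM on a log axis with exact 95% Poisson intervals cut at the left edge, and open markers there for 0 UMIs. Among the pituitary endocrine-like clusters of FMC_new, *Lhfpl3* runs from 11.9 to 286 CPM and *Megf11* reaches 258 CPM in the cluster led by *Oacyl* and *Pcsk2*, and *Lhfpl3* is higher in CPM in the oligodendrocyte-like clusters led by *Serpina3n* than in the largest.

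*Tmem255b* was highest outside glioma in a cluster of 84 cells of FMC_new that no marker list named, led by *Scn7a*, *Fndc3c1*, *Col25a1* and *Rax*. There it was found in 17.9% of cells, at 52.7 CPM (32.2 to 81.5), and in 7.59% of cells at 1000 UMIs. *Megf11* stood at 26.4 CPM and *Lhfpl3* at 42.2 CPM in the same cells. Among named classes, *Tmem255b* was highest in epithelial-like cells of FMC_new, at 9.08 CPM.

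*Lhfpl3* differed among the oligodendrocyte-like clusters, the most numerous class of C-ON. Over the class it was found in 8.91% of cells of C-ON, at 16.2 CPM, and in 14.03% of cells of FMC_new, at 25.6 CPM, at medians of 7712 and 7837 UMIs. In the 4 largest oligodendrocyte-like clusters of C-ON it stood at 10.4, 10.6, 9.54 and 9.84 CPM. It was at 40.8 CPM (34.5 to 47.8) in a cluster of 383 cells led by *Klk8*, *Iigp1* and *Serpina3n*, and at 59.2 CPM (50.7 to 68.8) in a cluster of 346 cells led by *C4b*, *Serpina3n* and *Masp1*. *C4b* and *Serpina3n* are known from reactive oligodendrocytes, and *Iigp1* is induced by interferon. At 1000 UMIs per cell the shares with *Lhfpl3* were 2.62% (1.27 to 4.77) and 5.23% (3.13 to 8.14) in these clusters, against 0.468% to 1.33% in the 4 largest. In FMC_new, a cluster of 354 cells led by *Klk6*, *Iigp1* and *Serpina3n* held it at 42.4 CPM (35.5 to 50.3), against 22.3 CPM (19.8 to 24.998) in the largest. In CPM, these intervals did not overlap those of the largest cluster of the same library. At 1000 UMIs the share in the FMC_new cluster was 4.32% (2.44 to 7.03), against 2.42% (1.73 to 3.30) in the largest, and these intervals overlapped. The interval of the 383 cells of C-ON also overlapped those of its largest clusters at that depth. A further cluster of C-ON, of 438 cells, held *Lhfpl3* at 14.7 CPM, and in 2.29% of cells (1.10 to 4.17) at 1000 UMIs. The part of cells merged into 1 droplet in this was not tested.

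Between the libraries, the level of the genes depended on which gated cells were counted. Over all gated cells, 9 of 10 genes were at least 2-fold higher in FMC_new than in C-ON, against 18.4% of 12477 genes. The ratio was 2.93 for *Dbx2*, 2.52 for *Lhfpl3* and 2.43 for *Inava*, and *Tmem255b*, at 1.89, was the gene that did not pass. None was 2-fold lower, against 7.39%. Within the gated cells of the glioma-like clusters, 0 of 10 were 2-fold higher, against 3.63% of 11417 genes, and 0 were 2-fold lower, against 2.26%. There the ratio was 1.16 for *Dbx2*, 1.05 for *Lhfpl3*, 1.01 for *Inava*, 0.958 for *Vxn*, 0.947 for *Brinp1*, 0.903 for *Olfm2*, 0.856 for *Plpp4*, 0.847 for *Nxph1*, 0.769 for *Megf11* and 0.766 for *Tmem255b*, with a median of 0.972 over all genes. The intervals of *Megf11*, *Tmem255b* and *Nxph1* did not overlap between the libraries, and those of the other 7 genes did. The share of gated cells that lay in glioma-like clusters differed with the library, as given above. With 1 pool on each side and no explanation of the labels, no test of the libraries is possible.

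**Figure D3:**
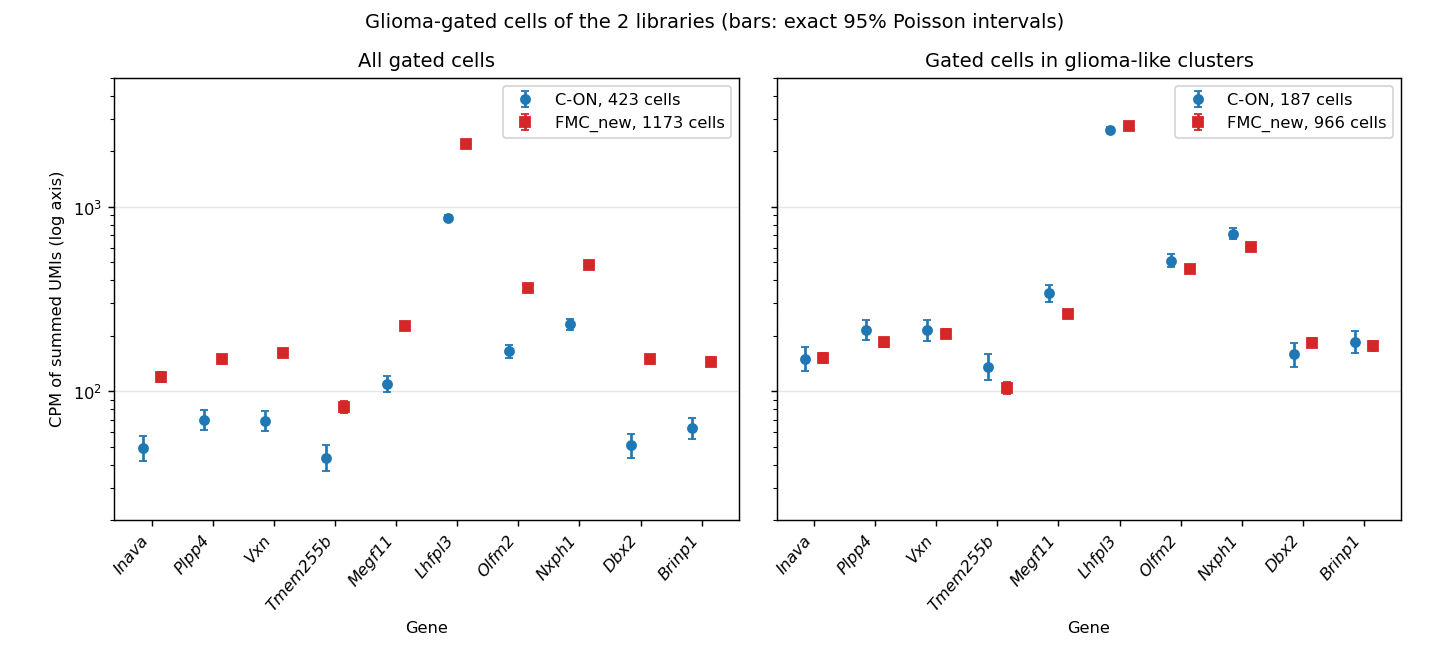
CPM of the 10 genes on a log axis in C-ON and FMC_new, over all gated cells and over the gated cells of the glioma-like clusters, with exact 95% Poisson intervals. The FMC_new points lie above the C-ON points for all 10 genes over all gated cells, and lie close to them once the glioma-like clusters alone are counted.

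Most gated glioma-like cells carried several of the 10 genes. The median was 7 genes with a UMI per cell in both libraries, and 82.9% of cells of C-ON and 87.1% of cells of FMC_new held at least 5. All 10 were found together in 15 cells of C-ON and 45 cells of FMC_new. The gated cells of the oligodendrocyte-like clusters held none of the 10 in 82.8% and 78.5% of cells at a greater depth, and T cell-like cells held none in 93.3% and 90.3%. Read in the other direction, 158 cells of C-ON held at least 5 of the genes, of which 157 (99.4%) lay in glioma-like clusters, and 918 cells of FMC_new did, of which 880 (95.9%) lay in them. In FMC_new, 7 cells with at least 5 of the genes lay in neither the gate nor those clusters. At 1000 UMIs per cell, 56.7% (C-ON) and 56.6% (FMC_new) of the gated glioma-like cells held at least 3.

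**Figure D4:**
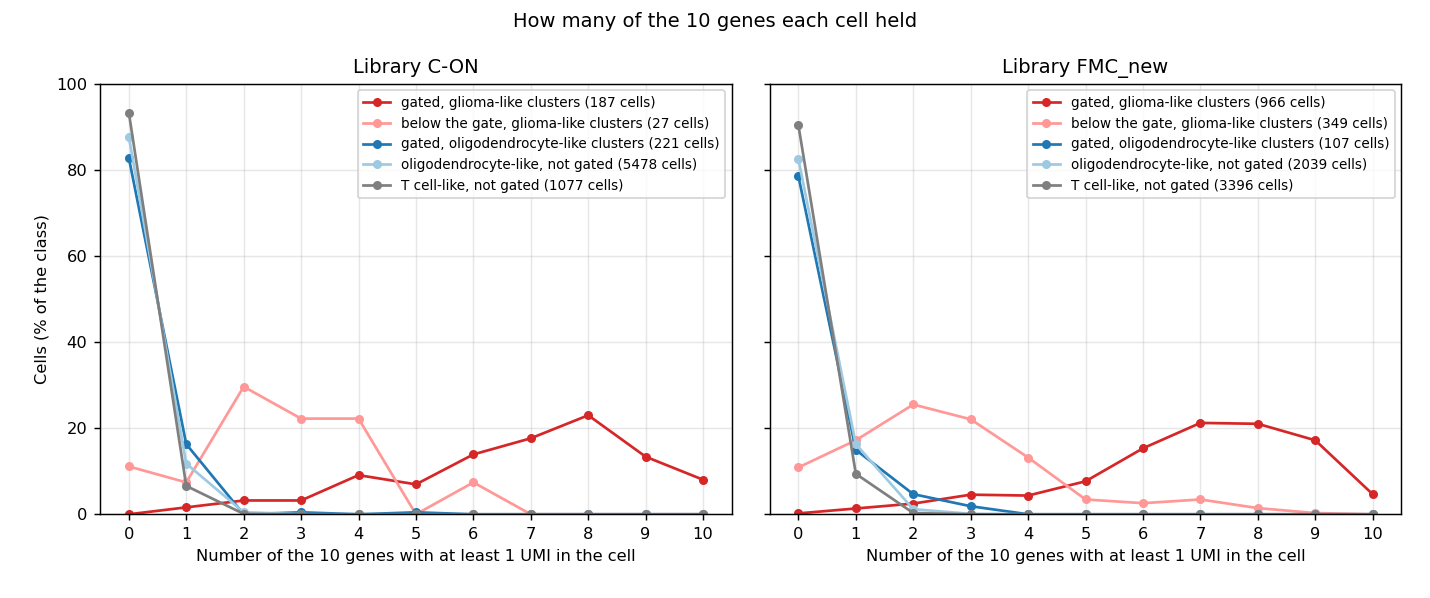
Share of cells (y axis, percent of the class) by the number of the 10 genes with at least 1 UMI in the cell (x axis), for gated and ungated cells of the glioma-like and oligodendrocyte-like clusters and for T cell-like cells of C-ON and FMC_new. The gated cells of the glioma-like clusters peak at 8 genes in C-ON and 7 in FMC_new, the T cell-like and oligodendrocyte-like classes are mostly at 0, and the glioma-like cells below the gate lie between.

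Within the gated glioma-like cells, pairs of the genes had mostly low correlations, in counts too sparse to show whether the genes sort together. At 1000 UMIs per cell, the correlation over cells had a median of 0.0456 over 45 pairs of genes in 187 cells of C-ON and 0.0232 in 957 cells of FMC_new. The highest pair was *Nxph1* and *Lhfpl3* in both libraries, at 0.433 and 0.283. The cells of each value share 1 library, and weak values in counts this sparse are no finding.

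*Gpr17* did not enter the gate, and splitting the gated glioma-like cells on a *Gpr17* UMI gave 95 cells with and 92 without in C-ON, and 493 and 473 in FMC_new. *Tmem255b* was at 162 CPM (131 to 198) with and 108 CPM (82.1 to 138) without *Gpr17* in C-ON, and at 130 CPM (118 to 143) and 74.1 CPM (64.6 to 84.5) in FMC_new, ratios of 1.501 and 1.75. It was the gene of the 10 at least 1.5-fold higher in both libraries, against 0.696% of 4744 genes. Its intervals overlapped in C-ON and not in FMC_new. *Vxn* was at 265 (225 to 311) and 160 CPM (128 to 196) in C-ON, and at 230 (215 to 247) and 175 CPM (161 to 191) in FMC_new, ratios of 1.66 and 1.31, with intervals that did not overlap in either library. *Inava* had ratios of 1.42 and 1.16.

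Other genes stood close to the median ratio of all genes, 1.08 in C-ON and 1.05 in FMC_new. The ratios were 0.934 and 0.920 for *Lhfpl3*, 0.922 and 0.966 for *Megf11*, 1.01 and 0.978 for *Nxph1*, 1.12 and 1.03 for *Olfm2* and 1.03 and 0.979 for *Plpp4*. *Dbx2*, at 1.34 and 0.883, and *Brinp1*, at 0.899 and 1.26, lay on different sides of 1 in the libraries. None of the 10 was 1.5-fold lower in both libraries, against 0.991% of genes. The gate genes *Neu4* (1.61 and 1.72) and *C1ql1* (1.42 and 1.65) were higher with *Gpr17*, and *Pcdh15* had ratios of 0.809 and 1.09. Over all gated cells 5 of 10 genes were 1.5-fold higher with *Gpr17* in both libraries, against 4.87% of 8503 genes, where the cells without *Gpr17* include the gated oligodendrocyte-like cells, and 0 were lower, against 8.74%.

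**Figure D5:**
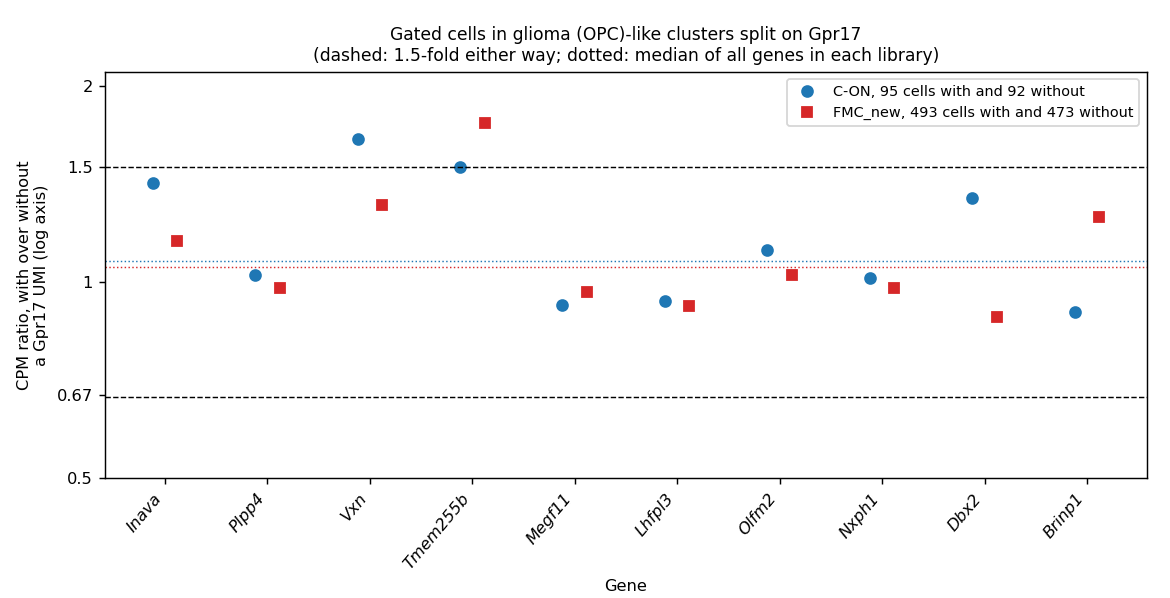
Ratio of the CPM of each gene in gated glioma-like cells with a *Gpr17* UMI to that in cells without (log axis), in C-ON and FMC_new, with dashed lines at 1.5-fold either way and dotted lines at the median of all genes. *Tmem255b* is the gene at or above 1.5 in both libraries, and *Lhfpl3* and *Megf11* are below 1 in both.

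FMC_new had a pair of glioma-like clusters, and 9 of 10 genes were at least 2-fold lower in the smaller, against 16.3% of 11397 genes. The larger held 876 cells at a median of 6265 UMIs, 831 of them gated, and the smaller 439 cells at 2224 UMIs, 135 of them gated. The genes were chosen for high levels in gated cells, so this contrast is not independent of that choice. The gate genes were lower in the smaller cluster as well, at ratios of 0.265 for *Pcdh15*, 0.308 for *C1ql1* and 0.520 for *Neu4*. *Plpp4* was at 207 CPM in the larger and 48.2 CPM in the smaller, a ratio of 0.234. The ratio was 0.254 for *Megf11*, 0.259 for *Nxph1*, 0.260 for *Dbx2*, 0.302 for *Olfm2*, 0.351 for *Brinp1*, 0.360 for *Lhfpl3*, 0.416 for *Vxn* and 0.423 for *Tmem255b*, against a median of 0.7999 over all genes. *Inava*, at 158 and 98.2 CPM and a ratio of 0.624, was the gene that did not pass. The progenitor marker *Pdgfra* was at 904 and 224 CPM, a ratio of 0.248. Genes of differentiation went the other way: *Mag*, a myelin glycoprotein, was at 32.2 and 861 CPM, *Enpp6*, a marker of newly formed oligodendrocytes, at 3.67 and 337 CPM, and *Sirt2* at 281 and 1505 CPM. *Gpr17*, at 230 and 184 CPM, had a ratio of 0.802, close to that of all genes. The cells of the smaller cluster were shallower and its leading genes included immunoglobulin segments, and the part of merged cells or free RNA in its levels was not tested. 

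C-ON had a single glioma-like cluster of 214 cells at this resolution, and a pair at a resolution of 2, a reading added after seeing the data. The larger held 140 cells at a median of 5326 UMIs, 135 of them gated, and the smaller 76 cells at 4765 UMIs, 52 of them gated. The choice of the genes in gated cells bears on this pair too. There 5 of 10 genes were at least 2-fold lower in the smaller, against 21.3% of 5108 genes. The ratio was 0.130 for *Dbx2*, 0.240 for *Tmem255b*, 0.272 for *Olfm2*, 0.344 for *Vxn* and 0.376 for *Inava*, and 0.570 for *Plpp4*, against a median of 0.799 over all genes. *Lhfpl3* was at 2456 CPM (2349 to 2567) in the larger and 2363 CPM (2222 to 2509) in the smaller, *Nxph1* at 619 and 743 CPM and *Brinp1* at 170 and 179 CPM, with intervals that overlapped for each. *Megf11* was higher in the smaller, at 425 CPM (367 to 490) against 257 CPM (223 to 295). *Pdgfra* was at 1231 and 390 CPM, *Mag* at 81.1 and 1279 CPM and *Enpp6* at 8.73 and 266 CPM. *Dbx2*, *Tmem255b*, *Olfm2* and *Vxn* were thus at least 2-fold lower in the smaller cluster of both libraries. *Plpp4* and *Inava* were also lower in both, *Plpp4* by 2-fold in FMC_new alone and *Inava* in C-ON alone. The lower levels of *Lhfpl3*, *Megf11*, *Nxph1* and *Brinp1* were read in FMC_new alone.

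The paralogs and known partners of the 10 genes, 33 of which were in the table, were not listed for their own level in glioma cells. The lists were made with earlier results of these data known. Of the 29 with at least 50 UMIs in the pooled libraries, 4 were highest in gated glioma-like cells, against 7.82% of 17835 genes. These were *Nrxn2* (an alpha-neurexin, the receptor family of *Nxph1*) at 216 CPM against 142 CPM in neuron-like cells, *Brinp3* at 541 against 511 CPM in neuron-like cells, *Plpp7* at 16.1 against 12.9 CPM in oligodendrocyte-like cells and *Cyth2* (a cytohesin, the partner family of *Inava*) at 71.3 against 68.0 CPM in oligodendrocyte-like cells. Of these 4, only *Nrxn2* and *Brinp3* were highest in glioma-like cells in each library read alone. With all gated cells, 2 were highest in glioma cells, *Nrxn2* and *Plpp7*, against 5.53% of 17914 genes.

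Pooled over both libraries, the others were highest elsewhere, and the neuron-like cells that led several of them were 32 cells of C-ON. In FMC_new read alone, 7 were highest in gated glioma-like cells, among them *Nrxn3* at 1343 CPM against 496 CPM in astrocyte-like cells, *Tmem255a* at 72.6 against 16.6 CPM in pituitary endocrine-like cells and *Lhfpl4* at 16.8 against 14.5 CPM in astrocyte-like cells. In C-ON read alone, 3 were, *Nrxn2*, *Brinp3* and *Frmd4a*, the last at 962 against 606 CPM. The share over all genes was not computed in each library alone, and FMC_new had no neuron-like class. The counts of the single libraries therefore do not show whether these genes differ from others. In the pooled libraries, *Lhfpl1* was highest in epithelial-like cells at 72.6 CPM, *Lhfpl2* in microglia-like cells at 83.1 CPM, *Lhfpl5* in pituitary endocrine-like cells at 80.4 CPM and *Lhfp* in astrocyte-like cells at 396 CPM. Among the other families, *Megf10* was highest in oligodendrocyte-like cells at 114 CPM, *Plpp3* in astrocyte-like cells at 1013 CPM, *Olfm1* in neuron-like cells at 306 CPM and *Olfm4* in neutrophil-like cells at 112 CPM. *Nrxn3* was second highest in gated glioma-like cells, at 1319 CPM, below 4247 CPM in neuron-like cells. *Tmem255a*, the paralog of *Tmem255b*, was at 70.6 CPM in gated glioma-like cells and 109 CPM in neuron-like cells. *Dbx1* had 1 UMI in all.

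The genes with the pattern most like each of the 10 were sought by the correlation of log2(CPM + 1) over cell classes, all gated cells being the glioma class, with classes of at least 50 cells, 10 in C-ON and 15 in FMC_new, among 14588 genes, taking the lower of both libraries. *Inava* and *Plpp4* were most like each other, at 0.980, followed by *Gpr17* for both, at 0.977 and 0.973. *Gpr17* was also second for *Vxn*, at 0.893, after *Igsf21* at 0.896. *Tmem255b* was most like *Susd5*, at 0.961, and *Olfm2* like *Tmem255b*, at 0.948. *Megf11* was most like *Ptprr* (0.940), *Nxph1* like *Ndst3* (0.945) and *Dbx2* like *Brinp3* (0.917). *Lhfpl3* was most like *Ttc9b*, at 0.952, and *Brinp1* like *Tac1*, at 0.960, with *Lhfpl3* and *Brinp1* also listed for each other at 0.945. The classes of C-ON in this measure leave out its 20 astrocyte-like and 32 neuron-like cells, and the points share libraries and depth, so the values rank genes and carry no test.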

How the data were processed

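Single-cell 5′ libraries from optic nerves of Nf1OPG mice were analysed, 2 libraries of 1 genotype. The authors deposited raw UMI counts per gene and barcode, without normalization, made with Cell Ranger 7.2.0 on mm10 per the submitters' processing notes. The study's methods name another version of Cell Ranger. Whether intronic reads were counted is not given in the sources used here.

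Cells with 500 to 5000 genes, 500 to 20000 UMIs and under 5% mitochondrial UMIs were kept, 81.5% of barcodes in C-ON and 78.8% in FMC_new. Each library was clustered on its own in scanpy 1.11.5 (2000 variable features without the 10 genes, the gate genes or *Gpr17*, 30 components, 20 neighbours, Leiden at a resolution of 1). Clusters were named from 24 marker lists, with at least 3 markers found. CPM is the summed UMIs of a gene in a class over all UMIs of that class, with exact Poisson intervals, and shares of cells have exact Clopper-Pearson intervals. Genes counted in a comparison had at least 50 UMIs in it. No p-value was computed, since cells are not replicates and the libraries are not 2 conditions. Calls were fixed at 10-fold over classes, 1.5-fold in both libraries for *Gpr17* and 2-fold between libraries or clusters. The named genes were the 10 genes, the gate genes, *Gpr17*, listed paralogs and partners, state markers and the 3 genes most alike. Seurat 5.3.0 under R 4.3.3 gave integrated clusters as an alternative, beside other gates, depths and resolutions. The scripts were tested on simulated data. The 10 genes and the lists were chosen with earlier results of these data known. Of the gene identifiers in the files, 32158 of 32285 matched the annotation of GRCm38.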

Additional observations from a re-analysis of the deposited data

How the results depend on the processing

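Counts over all gated cells depended most on which cells the gate took in. Where no share over all genes is given here or above, none was computed. Such counts show only how the number among the 10 genes, or among the paralogs and partners, moved with the setting. Of the 10 genes, 4 were at least 10 times every other named class (range 4 to 6 with a library left out). That number was 2 with the gate lowered to a sum of 2, with all barcodes kept, or with cells thinned to 1000 UMIs. For *Gpr17*, 5 genes were 1.5-fold higher or lower in both libraries, against 13.6% of 8503 genes. This number was 10 with the gate at 2 and with a split on *Pdgfra* in place of *Gpr17*, and 2 when thinned. It was 1 with the gate at a sum of 5 and with gated cells of other classes left out. It was also 1 with the glioma-like clusters as glioma cells, against 2.26% of 5088 genes. With gated cells of glioma-like clusters only it was 1, against 1.69% of 4744 genes. With a library left out it was 5 to 10, and 10 in C-ON alone. Between libraries, 9 genes passed 2-fold. The number was 0 with the gate at 5 and without gated cells of other classes. It was also 0 with the glioma-like clusters or with their gated cells only. With the glioma-like clusters, 4.64% of 11756 genes were 2-fold higher in FMC_new and 2.73% were 2-fold lower. When thinned 2 of the 10 passed, and as the mean of per-cell CPM 1 did, *Dbx2*. Of the paralogs and partners, 2 were highest in glioma cells, against 0 with the gate at 2, 4 without gated cells of other classes or with gated cells of glioma-like clusters only, and 1 as the mean of per-cell CPM (3 to 7 with a library left out). Between glioma-like clusters, 9 genes were 2-fold lower in the smaller in FMC_new, and 5 with the C-ON clusters at a resolution of 2. These C-ON clusters, the limit to gated cells of glioma-like clusters, and leaving out shared barcodes or the 5% highest doublet scores, were chosen after seeing the data.

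The ratio of FMC_new to C-ON was above 1 over all gated cells and below 1 for several genes elsewhere. With the glioma-like clusters it was 0.851 for *Plpp4*, 0.948 for *Vxn*, 0.752 for *Megf11*, 0.896 for *Olfm2*, 0.834 for *Nxph1* and 0.922 for *Brinp1*. With gated cells of other classes left out it was 0.988 for *Inava*, 0.861 for *Plpp4*, 0.942 for *Vxn*, 0.753 for *Megf11*, 0.887 for *Olfm2*, 0.827 for *Nxph1* and 0.924 for *Brinp1*. With gated cells of glioma-like clusters only it was 0.856 for *Plpp4*, 0.958 for *Vxn*, 0.769 for *Megf11*, 0.903 for *Olfm2*, 0.847 for *Nxph1* and 0.947 for *Brinp1*. These lists are drawn from the genes that passed 2-fold over all gated cells. *Tmem255b*, which did not pass, was at 0.772 with the glioma-like clusters and at 0.766 with their gated cells only. Ratios of the 10 genes to the highest other class moved beyond their spread between the 2 libraries in 32 of 160 alternatives. That spread is the standard deviation of the log2 ratios of the libraries. The ratios of *Dbx2* and *Brinp1* crossed 1 with the cells counted as glioma, as given above.

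No paired analysis was possible because both libraries belong to 1 group. Depth and the number of cells limit what a value of 0 shows. C-ON had only 20 astrocyte-like and 32 neuron-like cells, and clusters named pituitary endocrine-like come from FMC_new alone.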

Other observations

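The 49 gated cells of the pituitary endocrine-like clusters of FMC_new, at a median of 10040 UMIs, held *Megf11* at 371 CPM in 57.1% of cells, *Lhfpl3* at 443 CPM, *Nxph1* at 236 CPM and *Brinp1* at 123 CPM. *Inava*, *Tmem255b* and *Vxn* stood at 11.9, 11.9 and 5.96 CPM in the same cells.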
